A study of Rattus norvegicus with 60 samples.

Results

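The lipogenesis genes described here are 10 genes of hepatic fatty acid synthesis: Scd, Elovl6, Pklr, Acly, Acaca, Fasn, Me1, Srebf1, Thrsp and Pnpla3. They were chosen by symbol, with 20 probe sets on the array carrying exactly 1 of these symbols, out of 31042 probe sets tested and 14217 genes with a 1-symbol probe set. For each gene the probe set with the highest mean over all 60 arrays stands for the gene, and the other probe sets are given as a check. Scd and Acly have 1 probe set each, Thrsp and Pnpla3 have 3 each, and the other 6 genes have 2 each.

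The livers came from male F344/N rats, 5 to 6 weeks of age at the start and housed 2 per cage, that were dosed by oral gavage in corn oil for 5 consecutive days. One chemical was DMPT, the N,N-dimethyl form of p-toluidine, and the other was p-toluidine itself, whose nitrogen lacks the 2 methyl groups. Each chemical had 5 arrays at each of 1, 6, 20, 60 and 120 mg/kg per day and 5 arrays from a corn oil vehicle group of its own. All groups therefore shared the strain, the sex, the gavage and the corn oil. Which rat or cage an array came from is not stated in the labels, and a p-value here reflects only how much these arrays spread.

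A liver that takes up sugar beyond its needs turns part of it into fat. Glycolysis delivers pyruvate, citrate carries the carbon out of the mitochondria, ATP citrate lyase and acetyl-CoA carboxylase prepare it, fatty acid synthase builds palmitate with NADPH as the reductant, and elongase and desaturase turn palmitate into oleate for triglyceride. In rat liver the genes of this route are switched together by insulin through the transcription factor SREBP-1c (gene Srebf1) and by glucose through the carbohydrate response element binding protein ChREBP (gene Mlxipl), and they are shut down by fasting.

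Values are log2 expression values as deposited, and a change is the log2 difference of a dose group from the vehicle group of its own chemical, given ± the standard error of the limma fit. A gene was called, and is said to have risen or fallen, at an adjusted p of at most 0.05 (limma, Benjamini-Hochberg over all 31042 probe sets). The arrays of the chemicals had different medians (3.53 to 3.61 for DMPT, 2.73 to 2.81 for p-toluidine), so levels are compared only within a chemical. Of the DMPT arrays, 6 stood apart by the spread of their values: replicate 3 at 6 mg/kg, replicates 2, 3 and 5 at 60 mg/kg and replicates 2 and 5 at 120 mg/kg. No p-toluidine array did. Precision is limited by the number of arrays.

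Members of the route moved in different directions. After 5 days Scd and Pklr fell under both chemicals. Me1 rose under both by its brighter probe set only, Pnpla3 rose under p-toluidine and Thrsp fell under DMPT. Elovl6, Acly, Acaca, Fasn and Srebf1 were called at no dose with their brightest probe set. In a bulk liver sample, fewer cells of a type and less RNA per cell cannot be told apart. Under DMPT no member was called at 1 mg/kg, where 0% of all probe sets were called. At 6 mg/kg Thrsp fell (0.168% of all probe sets were called in either direction), and at 20 mg/kg Scd and Thrsp fell (2.61%). Scd and Pklr fell and Me1 rose at 60 mg/kg (5.2%), and at 120 mg/kg Scd, Pklr and Thrsp fell and Me1 rose (9.8%). Under p-toluidine no member was called at 1 or 6 mg/kg (0% of all probe sets at either dose), and at 20 mg/kg Scd and Pklr fell (0.786%). Scd and Pklr fell and Pnpla3 rose at 60 mg/kg (4.51%), and at 120 mg/kg Scd and Pklr fell and Me1 and Pnpla3 rose (10.7%).

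**Figure D1:**
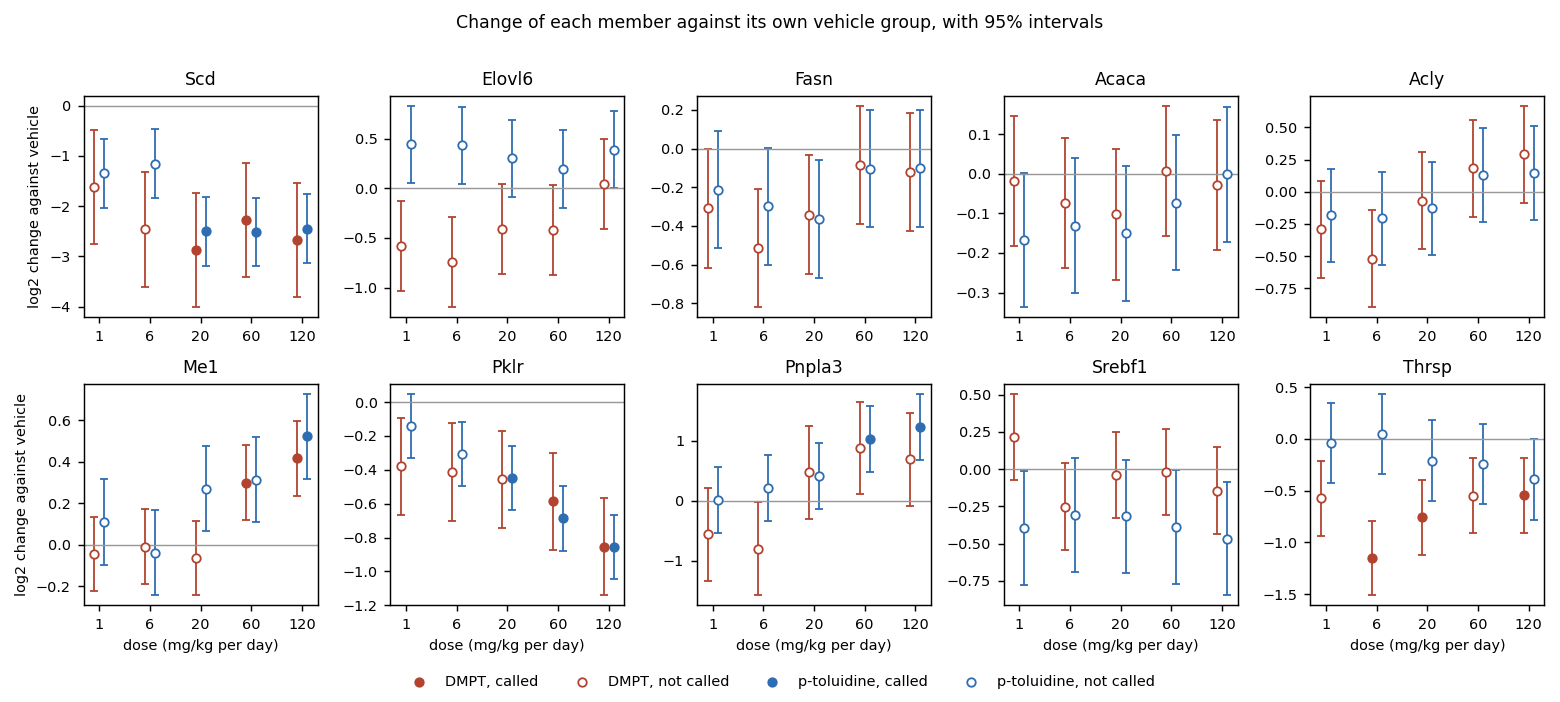
Log2 change of the 10 genes against their own vehicle group (vertical axis, own scale in each panel) at each dose in mg/kg per day (horizontal axis), with 95% intervals of the limma fit. DMPT is red and p-toluidine blue, and filled points passed an adjusted p of 0.05. Scd lies between −1.15 and −2.88 at every dose of both chemicals, Pklr moves lower from dose to dose, and Fasn, Acaca, Acly, Elovl6 and Srebf1 have open points throughout.

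Signs over the 10 genes are given as counts, with no test between doses, and all doses of a chemical share its 5 vehicle arrays. Under DMPT all 10 lay below 0 at 6 mg/kg with a median of −0.52, and 9 of 10 did at 1 mg/kg (median −0.34) and at 20 mg/kg (median −0.22). At 60 and 120 mg/kg 6 of 10 lay below 0, with medians of −0.05 and −0.07. Under p-toluidine 7 of 10 lay below 0 at 1, 6 and 20 mg/kg and 6 of 10 at 60 and 120 mg/kg, with medians between −0.05 and −0.18. The median over all probe sets lay between −0.0143 and 0.00606 in each of these comparisons. Of the 10 members at 6 mg/kg of DMPT, only Thrsp passed.

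Counted by overlap of the arrays, 0 members had all dosed arrays below or above all vehicle arrays at 1 mg/kg of either chemical, where 0.619% of all probe sets lay below and 0.612% above for DMPT and 0.367% below and 0.615% above for p-toluidine. At 6 mg/kg of DMPT 2 members lay below and 0 above (all probe sets 1.27% and 0.754%), and at 20 mg/kg 2 below and 0 above (2.68% and 2.77%). For the 60 mg/kg group of DMPT 0 lay below and 1 above (3.24% and 1.78%), and at 120 mg/kg 3 below and 1 above (4.82% and 3.73%). For p-toluidine 1 lay below and 0 above at 6 mg/kg (0.812% and 0.805%), and 2 below and 0 above at 20 mg/kg (1.2% and 1.55%). For 60 mg/kg the counts were 2 below and 0 above (2.13% and 2.24%), and at 120 mg/kg 2 below and 2 above (3.89% and 4.4%).

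Regulatory sequence is shown for Pklr, Scd, Me1 and Thrsp, which were picked with the results known. RefSeq's table for build GRCr8 held a window for 7 of the 10 genes (2 for Srebf1). The 250 bases before the start site are given 5′ to 3′ on the strand of the gene, in lower case with motif matches in capitals. The annotated Scd gene reaches to 253232101, upstream of its window, and the Pklr gene starts at 176840779, also upstream. The start sites used for these genes, and for Acly and Pnpla3, thus lay inside the annotated gene. Sequence further upstream was not searched. The motifs searched on both strands were the carbohydrate response element bound by ChREBP (CANGNG and CNCNTG with 5 bases between them), the sterol response element TCACNCCAC bound by SREBP, the E-box CACGTG, the NF-Y box CCAAT and the core of the antioxidant response element TGACNNNGC bound by NRF2. They were present in 0.472%, 0.974%, 5.59%, 34.0% and 10.1% of 33469 rat windows of the same length. The search was made with the results known, and a match is a description of the letters, not a bound site.
Pklr, chr2:176841014-176841263, plus strand, carbohydrate response element in capitals: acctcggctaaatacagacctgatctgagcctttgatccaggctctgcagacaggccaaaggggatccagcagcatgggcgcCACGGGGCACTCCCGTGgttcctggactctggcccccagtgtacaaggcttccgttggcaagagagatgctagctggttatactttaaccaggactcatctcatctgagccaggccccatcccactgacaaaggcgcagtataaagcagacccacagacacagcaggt
Scd, chr1:253231732-253231981, minus strand, antioxidant response element core (reverse strand) in capitals: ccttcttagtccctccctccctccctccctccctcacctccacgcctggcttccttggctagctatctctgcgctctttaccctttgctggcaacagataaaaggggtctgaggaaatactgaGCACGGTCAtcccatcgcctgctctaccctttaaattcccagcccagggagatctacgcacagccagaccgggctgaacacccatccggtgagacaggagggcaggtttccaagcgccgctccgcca
Me1, chr8:96540245-96540494, minus strand, antioxidant response element core in capitals: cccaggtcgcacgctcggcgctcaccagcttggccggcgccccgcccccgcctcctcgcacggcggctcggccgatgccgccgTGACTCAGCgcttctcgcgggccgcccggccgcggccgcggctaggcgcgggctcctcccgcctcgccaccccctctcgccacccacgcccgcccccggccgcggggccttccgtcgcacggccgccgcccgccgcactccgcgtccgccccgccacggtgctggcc
Thrsp, chr1:161138965-161139214, minus strand, NF-Y box (reverse strand) in capitals: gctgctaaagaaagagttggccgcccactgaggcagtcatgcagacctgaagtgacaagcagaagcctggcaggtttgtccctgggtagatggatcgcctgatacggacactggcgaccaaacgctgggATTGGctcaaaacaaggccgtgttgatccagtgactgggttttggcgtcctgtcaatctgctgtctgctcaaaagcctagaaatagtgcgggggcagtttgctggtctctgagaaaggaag
The carbohydrate response element of Pklr lay 168 to 152 bases before the start site and the antioxidant core of Me1 167 to 159 bases before it. In the other windows NF-Y boxes were the matches found: 2 for Pnpla3, 1 for Acly, and 1 and 2 in the windows of Srebf1.

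Scd encodes stearoyl-CoA desaturase, which places the double bond that turns stearate into oleate. Its change was the largest of the 10 genes at every dose of both chemicals. The DMPT vehicle arrays read 8.47, 10.63, 6.39, 7.81 and 6.30, and the arrays at 1 mg/kg read 5.71, 5.62, 8.51, 6.15 and 5.51. The vehicle group thus ranged over 4.33 log2 units, with replicate 2 the highest, and replicate 3 at 1 mg/kg lay within the vehicle range. The arrays at 6 mg/kg read 5.51, 5.61, 5.45, 6.26 and 4.45. Those at 20 mg/kg read 5.18, 4.85, 4.72, 4.90 and 5.55. At both doses all 5 arrays lay below all 5 vehicle arrays. The arrays at 60 mg/kg read 5.09, 5.45, 5.55, 5.07 and 7.04, and those at 120 mg/kg read 4.96, 5.48, 5.48, 4.81 and 5.47. Replicate 5 at 60 mg/kg, which is also one of the arrays that stood apart, overlapped the vehicle group, and no array at 120 mg/kg did.

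Scd fell in the DMPT set at 20 (change −2.88 ± 0.56, 7.34-fold lower, adjusted p = 0.00336), 60 (−2.28 ± 0.56, 4.84-fold lower, adjusted p = 0.0117) and at 120 mg/kg (−2.68 ± 0.56, 6.41-fold lower, adjusted p = 0.00155). At 6 mg/kg the change was −2.46 ± 0.56 with an adjusted p of 0.0597, and at 1 mg/kg −1.62 ± 0.56 with an adjusted p of 0.864. From vehicle through the doses in rising order the group SDs were 1.78, 1.26, 0.65, 0.33, 0.81 and 0.33. The spread between arrays was thus widest in the vehicle group, where the level was highest. An exact permutation test of the 10 arrays compared, added after this was seen and adjusted over the 10 dose comparisons of Scd, gave an adjusted p of 0.0132 for the 6, 20 and 120 mg/kg groups. It was 0.0340 for 60 mg/kg and 0.111 for 1 mg/kg. This exact test is not adjusted over all probe sets, so it gives no call as defined here. The unadjusted p of the 6, 20 and 120 mg/kg groups is the lowest this test can give for 10 arrays. In the limma fit the call at 6 mg/kg was gained without vehicle replicate 3 (adjusted p = 0.0289) or vehicle replicate 5 (0.0319). The call at 60 mg/kg was lost in a limma fit of only the arrays compared (adjusted p = 0.073). Without the 6 arrays that stood apart the change at 60 mg/kg was −2.84 with an adjusted p of 0.0737, over 2 arrays, and that at 120 mg/kg was −2.84 with an adjusted p of 0.0102.

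The p-toluidine vehicle arrays read 6.33, 5.99, 7.28, 7.75 and 5.04 for Scd. Those at 1 mg/kg read 4.69, 5.33, 5.12, 5.36 and 5.14, and those at 6 mg/kg read 5.13, 5.53, 4.55, 5.52 and 5.90. At these 2 doses the arrays overlapped the vehicle group only through vehicle replicate 5, the lowest of its group. The arrays at 20 mg/kg read 4.09, 3.43, 3.27, 4.75 and 4.34. Those at 60 mg/kg read 3.56, 4.13, 3.58, 4.28 and 4.27, and those at 120 mg/kg read 4.24, 3.45, 4.29, 4.28 and 3.90. The 3 highest doses lay below every vehicle array and close to each other. Scd fell at 20 mg/kg (−2.50 ± 0.33, 5.66-fold lower, adjusted p = 0.000166), 60 mg/kg (−2.51 ± 0.33, adjusted p = 1.13e-05) and 120 mg/kg (−2.45 ± 0.33, adjusted p = 4.97e-06). The changes at 1 mg/kg (−1.35 ± 0.33) and 6 mg/kg (−1.15 ± 0.33) had adjusted p of 0.261 and 0.286. The call at 1 mg/kg was gained without vehicle replicate 5 (adjusted p = 0.0477). The exact permutation test, adjusted over the 10 comparisons only, gave 0.0496 at 1 mg/kg and 0.0882 at 6 mg/kg. The other stearoyl-CoA desaturase on the array is Scd2, a related gene expressed mainly outside the liver and named here after its values were seen. Scd2 fell by 0.57 ± 0.12 at 60 mg/kg of p-toluidine (adjusted p = 0.00305) and had a change of −0.06 ± 0.13 at that dose of DMPT (adjusted p = 0.877). It was not called at 120 mg/kg of either chemical.

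**Figure D2:**
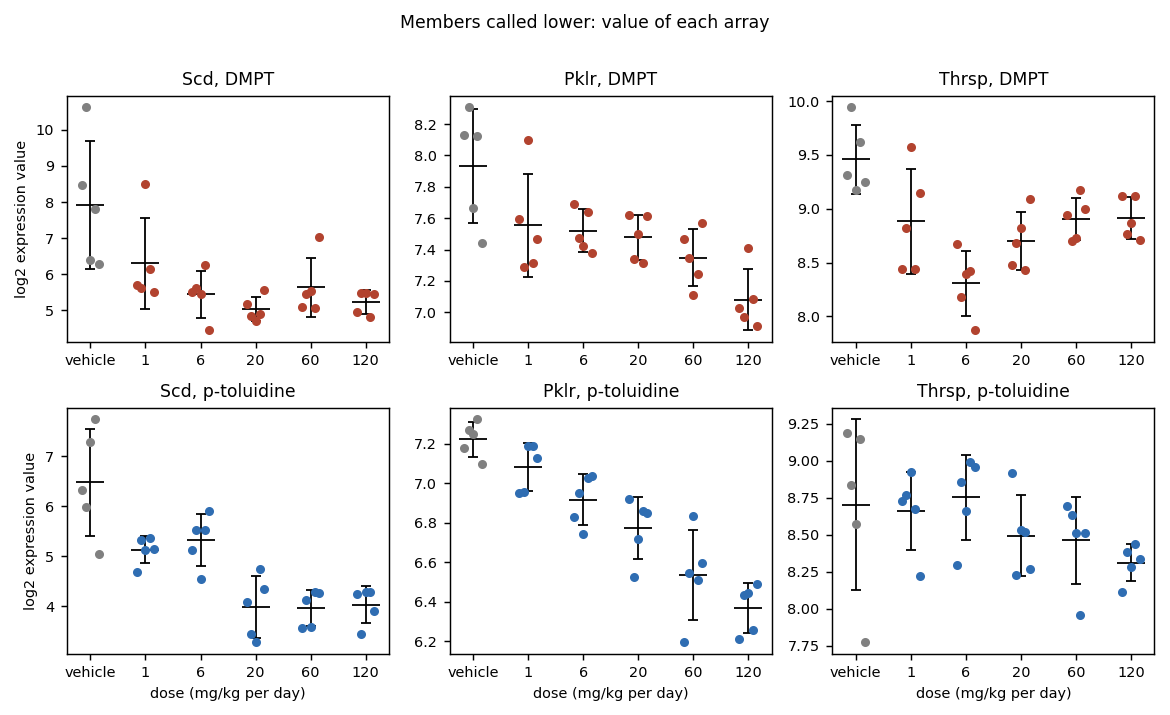
Log2 expression value of each array (vertical axis, own scale in each panel) for Scd, Pklr and Thrsp at vehicle and each dose in mg/kg per day, DMPT in the upper and p-toluidine in the lower panels. Grey points are vehicle arrays and coloured points dosed arrays, and bars are mean ± SD of 5 arrays. Scd vehicle arrays spread from 6.30 to 10.63 in the DMPT set, Pklr means descend at every step, and Thrsp is lowest at 6 mg/kg of DMPT.

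Elovl6 lengthens palmitate to stearate, the substrate of Scd. Its arrays ranged from 4.78 to 6.07 at 120 mg/kg of DMPT and from 4.54 to 5.86 in DMPT vehicle, and from 4.52 to 5.23 at 120 mg/kg of p-toluidine and from 4.12 to 4.96 in p-toluidine vehicle. The groups overlapped at every dose. The lowest change was −0.75 ± 0.22 at 6 mg/kg of DMPT (adjusted p = 0.223), where the second probe set gave −0.30. Under p-toluidine the 5 changes lay between 0.20 and 0.44 (lowest adjusted p 0.225).

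Pklr encodes the liver and red cell pyruvate kinase, which makes pyruvate in the last step of glycolysis and is a classical target of ChREBP. Its group means were ordered by dose without exception under both chemicals. For DMPT the means were 7.93 ± 0.36 in vehicle, 7.55 ± 0.33 at 1, 7.52 ± 0.14 at 6, 7.48 ± 0.14 at 20, 7.35 ± 0.18 at 60 and 7.08 ± 0.19 at 120 mg/kg (SD, n = 5 each). For p-toluidine they were 7.22 ± 0.09 in vehicle, 7.08 ± 0.12 at 1, 6.92 ± 0.13 at 6, 6.77 ± 0.16 at 20, 6.54 ± 0.23 at 60 and 6.37 ± 0.13 at 120 mg/kg. No step between neighbouring doses was called.

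At 120 mg/kg the Pklr arrays read 7.03, 6.97, 7.41, 7.08 and 6.91 for DMPT, against 8.13, 8.31, 7.67, 8.12 and 7.44 in DMPT vehicle. They read 6.21, 6.44, 6.45, 6.26 and 6.49 at 120 mg/kg of p-toluidine, against 7.18, 7.27, 7.25, 7.33 and 7.10 in p-toluidine vehicle. Neither pair of groups overlapped, and under p-toluidine the groups were already apart at 6, 20 and 60 mg/kg. Pklr fell at 60 mg/kg of DMPT (−0.59 ± 0.14, adjusted p = 0.0102) and at 120 mg/kg (−0.85 ± 0.14, 1.81-fold lower, adjusted p = 0.000101). Under p-toluidine it fell at 20 mg/kg (−0.45 ± 0.09, adjusted p = 0.0140), 60 mg/kg (−0.69 ± 0.09, adjusted p = 1.44e-05) and 120 mg/kg (−0.86 ± 0.09, 1.81-fold lower, adjusted p = 8.4e-08). The second probe set of Pklr was also called at 120 mg/kg of both chemicals (−0.73 for DMPT, −0.81 for p-toluidine), but its −0.48 at 60 mg/kg of DMPT had an adjusted p of 0.0613. Without the arrays that stood apart the change at 60 mg/kg of DMPT was −0.58 with an adjusted p of 0.165, and −0.76 at 120 mg/kg with an adjusted p of 0.00565. The call at 20 mg/kg of p-toluidine was lost without vehicle replicate 4 (adjusted p = 0.0502) or 20 mg/kg replicate 2 (0.0581), and a call at 20 mg/kg of DMPT was gained without vehicle replicate 5 (0.0193).

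Acly (ATP citrate lyase), Acaca (acetyl-CoA carboxylase, which commits carbon to fatty acid synthesis) and Fasn (fatty acid synthase) were measured at high levels, above 92% of all probe sets in both sets of arrays. Acly ranged from 9.56 to 10.22 at 120 mg/kg of DMPT and from 9.23 to 10.08 in vehicle, with a change of 0.29 ± 0.18 (adjusted p = 0.389). At 6 mg/kg its arrays read 9.38, 8.85, 9.11, 9.10 and 8.46, against 9.52, 10.08, 9.32, 9.23 and 9.36 in vehicle. All but 1 of the dosed arrays lay below every vehicle array, and the change of −0.52 ± 0.18 had an adjusted p of 0.334. Acly was lowest at 6 mg/kg and highest at 120 mg/kg under both chemicals, and under p-toluidine its changes lay between −0.21 and 0.15.

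Acaca had the smallest range of changes of the 10 genes, with values between −0.17 and 0.01 over all 10 comparisons. Fasn lay below its vehicle mean at every dose, from −0.09 to −0.51 under DMPT and from −0.10 to −0.36 under p-toluidine, with the lowest adjusted p of 0.213 at 6 mg/kg of DMPT. The second, dimmer Fasn probe set was called lower at 20 mg/kg of DMPT (−0.59 ± 0.14, adjusted p = 0.0176) and at 120 mg/kg (−0.44 ± 0.14, adjusted p = 0.0445), where the brighter probe set gave −0.34 and −0.12. The Fasn probe sets therefore disagreed on the call but not on the sign.

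Me1 encodes the cytosolic malic enzyme, which supplies NADPH to fatty acid synthase and is also a known target of NRF2. Its arrays read 8.76, 8.71, 8.86, 8.62 and 8.96 at 120 mg/kg of DMPT, against 8.43, 8.40, 8.44, 8.29 and 8.25 in DMPT vehicle. They read 8.36, 8.20, 8.31, 8.36 and 8.55 at 120 mg/kg of p-toluidine, against 8.10, 7.75, 7.69, 7.82 and 7.81 in p-toluidine vehicle. The dosed arrays lay above every vehicle array in both pairs. Me1 rose by 0.30 ± 0.09 at 60 mg/kg of DMPT (adjusted p = 0.0410), by 0.42 ± 0.09 at 120 mg/kg of DMPT (1.34-fold, adjusted p = 0.00179) and by 0.52 ± 0.10 at 120 mg/kg of p-toluidine (1.44-fold, adjusted p = 0.000500). At 20 mg/kg of DMPT the change was −0.06 ± 0.09. The second Me1 probe set, which is about as bright, gave 0.12 ± 0.12 and 0.14 ± 0.17 at 120 mg/kg (adjusted p = 0.616 and 0.705), so the rise rests on 1 of 2 probe sets. With the mean of both probe sets the change at 120 mg/kg was 0.27 (adjusted p = 0.0633) for DMPT and 0.33 (adjusted p = 0.0858) for p-toluidine. At 60 mg/kg the second probe set had the opposite sign to the first, with −0.06 for DMPT and −0.25 for p-toluidine. The mean of both at 60 mg/kg of DMPT was 0.12 (adjusted p = 0.543). The call at 60 mg/kg of DMPT was lost without any of vehicle replicates 1, 2, 4 and 5 or 60 mg/kg replicates 2 and 4 (adjusted p up to 0.107). At 60 mg/kg of p-toluidine the change of 0.31 ± 0.10 had an adjusted p of 0.0711, and it was called without vehicle replicate 1 or 60 mg/kg replicate 3 or 4.

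Pnpla3 encodes a lipid droplet protein with lipase and transacylase activity that is induced by SREBP-1c. Its level was close to the middle of all probe sets (percentile 57.0 in the DMPT set and 55.9 in the p-toluidine set). Its arrays read 3.79, 3.74, 4.22, 4.27 and 3.60 at 120 mg/kg of p-toluidine, against 3.40, 2.79, 2.18, 2.77 and 2.33 in p-toluidine vehicle, with no overlap. At 60 mg/kg they read 3.70, 4.77, 3.36, 3.29 and 3.51, and replicate 2 was far above the rest. Pnpla3 rose by 1.03 ± 0.27 at 60 mg/kg (2.04-fold, adjusted p = 0.0207) and by 1.23 ± 0.27 at 120 mg/kg (2.35-fold, adjusted p = 0.00205). The call at 60 mg/kg was lost without that replicate 2 (change 0.77, adjusted p = 0.0761), without vehicle replicate 3 (0.0684) or without vehicle replicate 5 (0.0554). The other 2 probe sets gave 0.74 and 0.19 at 120 mg/kg with adjusted p of 0.0678 and 0.174.

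Under DMPT the Pnpla3 arrays read 5.64, 3.61, 5.08, 4.15 and 4.53 at 120 mg/kg, against 3.80, 5.60, 3.78, 2.88 and 3.51 in vehicle. The groups overlapped. Vehicle replicate 2 was the highest DMPT vehicle array for 8 of the 10 genes, all but Elovl6 and Me1. The changes ran from −0.80 ± 0.38 at 6 mg/kg to 0.88 ± 0.38 at 60 mg/kg, and none was called (lowest adjusted p 0.206). Without vehicle replicate 2 Pnpla3 was called higher at 60 mg/kg (adjusted p = 0.0202) and at 120 mg/kg (1.11, adjusted p = 0.0360).

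**Figure D3:**
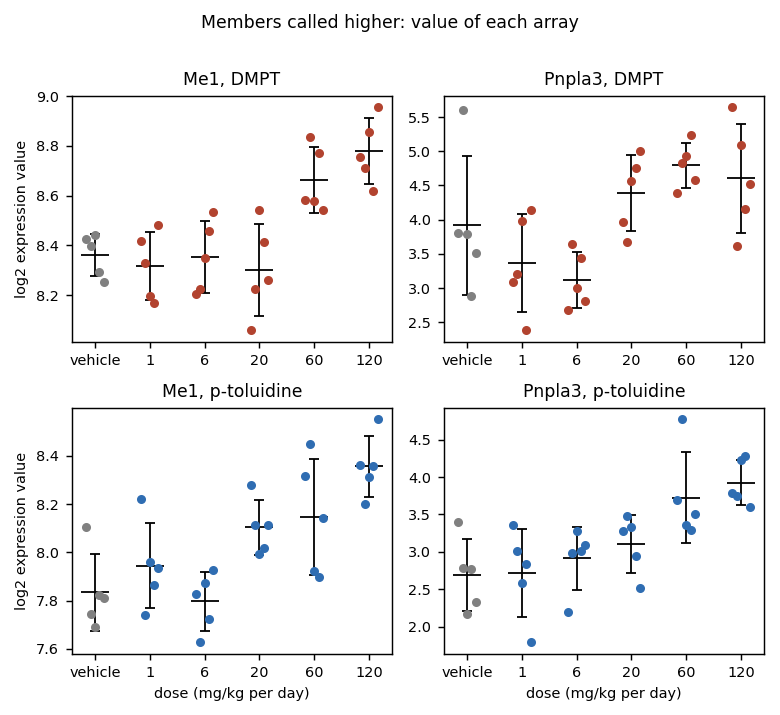
Log2 expression value of each array (vertical axis, own scale in each panel) for Me1 and Pnpla3 at vehicle and each dose in mg/kg per day, DMPT in the upper and p-toluidine in the lower panels. Grey points are vehicle arrays and coloured points dosed arrays, and bars are mean ± SD of 5 arrays. Me1 at 120 mg/kg lies above all vehicle arrays of its own chemical, while the Pnpla3 vehicle arrays of the DMPT set reach 5.60 and overlap all doses.

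Srebf1 encodes the SREBP-1 transcription factors that switch on most genes of this route. It ranged from 8.13 to 8.48 at 120 mg/kg of DMPT and from 7.98 to 8.89 in DMPT vehicle, and from 7.37 to 8.10 at 120 mg/kg of p-toluidine and from 7.88 to 8.77 in p-toluidine vehicle. The groups overlapped at every dose. The changes lay between −0.25 and 0.22 for DMPT and between −0.31 and −0.47 for p-toluidine, the last of them −0.47 ± 0.19 at 120 mg/kg with an adjusted p of 0.118. When the fit took the beta-actin 3′ minus 5′ difference, which tracks RNA integrity, as a covariate, that change became −0.71 with an adjusted p of 0.0111. This difference was itself lower at the top dose: 1.43 to 1.61 at 120 mg/kg of p-toluidine against 1.59 to 1.95 in its vehicle, and 1.17 to 1.37 at 120 mg/kg of DMPT against 1.36 to 1.74 in its vehicle. With the covariate the Me1 call at 60 mg/kg of DMPT was lost (adjusted p = 0.0533), Thrsp at 60 mg/kg of DMPT (0.0464) and Me1 at 60 mg/kg of p-toluidine (0.0414) were called, and the calls of Scd, Pklr, Thrsp and Pnpla3 against vehicle were kept.

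Thrsp (Spot 14) encodes a small acidic protein that follows thyroid hormone and carbohydrate feeding and is needed for full lipogenesis in rat hepatocytes. Its lowest mean stood at 6 mg/kg of DMPT, as did those of Acly, Elovl6, Fasn, Pnpla3 and Srebf1. The DMPT vehicle arrays read 9.31, 9.94, 9.17, 9.62 and 9.25, those at 1 mg/kg read 8.44, 8.82, 9.57, 8.44 and 9.15, and those at 6 mg/kg read 8.67, 8.18, 8.39, 8.42 and 7.87. The arrays at 20 mg/kg read 8.47, 8.69, 8.82, 8.43 and 9.09, those at 60 mg/kg ranged from 8.70 to 9.17, and those at 120 mg/kg read 9.12, 8.76, 8.87, 9.12 and 8.71. The arrays at 6, 20 and 120 mg/kg lay below every vehicle array. Thrsp fell at 6 mg/kg (−1.15 ± 0.18, 2.22-fold lower, adjusted p = 0.00182), 20 mg/kg (−0.76 ± 0.18, 1.69-fold lower, adjusted p = 0.0153) and 120 mg/kg (−0.54 ± 0.18, 1.46-fold lower, adjusted p = 0.0465). At 60 mg/kg the change was −0.55 ± 0.18 with an adjusted p of 0.0658. All 3 Thrsp probe sets were called at 6 and 20 mg/kg and 2 of 3 at 120 mg/kg. The difference between 20 and 6 mg/kg, 0.39 ± 0.18, was not called (adjusted p = 0.437).

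Without the arrays that stood apart the Thrsp change was −1.17 (adjusted p = 0.0131) at 6 mg/kg and −0.42 (adjusted p = 0.272) at 120 mg/kg. The call at 20 mg/kg was lost without vehicle replicate 2 (adjusted p = 0.0593) or 20 mg/kg replicate 4 (0.0554). That at 120 mg/kg was lost without any of vehicle replicates 1, 2 and 4 or 120 mg/kg replicates 1, 2, 3 and 5 (adjusted p up to 0.160). It was kept without the other 3 arrays. The 120 mg/kg call was also lost after quantile normalization over 30 arrays (adjusted p = 0.0598) or 60 arrays (0.0593). With an intensity trend and robust moderation it was lost too (0.0801). Under p-toluidine Thrsp read 8.11, 8.38, 8.28, 8.44 and 8.34 at 120 mg/kg, against 9.19, 8.84, 8.57, 9.14 and 7.77 in vehicle, where replicate 5 was the lowest. The change of −0.39 ± 0.19 had an adjusted p of 0.216, and without vehicle replicate 5 it was −0.63 with an adjusted p of 0.00911. The other 2 probe sets gave −0.49 and −0.53 over all arrays (adjusted p = 0.0622 and 0.0527).

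Over the rank of the dose, 4 of 10 members had a called slope under either chemical, beside 14.9% of all probe sets for DMPT and 14.5% for p-toluidine. Me1 and Pnpla3 sloped up and Scd and Pklr sloped down under both. The slope of Thrsp was not called with its brightest probe set (adjusted p = 0.360 for DMPT and 0.0807 for p-toluidine). Its other probe sets had called downward slopes under p-toluidine (adjusted p = 0.0331 and 0.0210) but not under DMPT (0.439 and 0.328). With the mean of its probe sets the p-toluidine slope of Thrsp was called (adjusted p = 0.0298). The second Me1 probe set had no called slope (adjusted p = 0.532 for DMPT and 0.758 for p-toluidine). With the mean of both probe sets the p-toluidine slope of Me1 was not called (adjusted p = 0.0765). The slope of Scd per dose rank was −0.45 ± 0.11 for DMPT (adjusted p = 0.00283) and −0.49 ± 0.07 for p-toluidine (adjusted p = 2.15e-06). That of Pnpla3 was 0.26 ± 0.07 for DMPT (adjusted p = 0.0152) and 0.27 ± 0.05 for p-toluidine (adjusted p = 5.08e-05). With the beta-actin 3′ minus 5′ difference as a covariate the DMPT slope of Pnpla3 was not called (0.22, adjusted p = 0.0740). The p-toluidine slopes of Thrsp and Srebf1 were then called (−0.10 for both, adjusted p = 0.0323 and 0.0293). For steps between neighbouring doses no member was called. From the lowest step to the highest, 0%, 0.0161%, 0.11% and 0.174% of all probe sets were called for DMPT and 0%, 0.00322%, 0.106% and 0.838% for p-toluidine. The nearest to a call was Me1 between 60 and 20 mg/kg of DMPT (0.36 ± 0.09, adjusted p = 0.0798). Scd had its widest step, −1.35 ± 0.33, between 20 and 6 mg/kg of p-toluidine (adjusted p = 0.482).

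The responses to DMPT and p-toluidine, which differ by the N-methyl groups, were compared at the 5 matched doses for each of the 10 genes, with adjustment over all probe sets. No difference was called, where 0% of all probe sets were called at 1, 6, 20 and 60 mg/kg and 0.00644% at 120 mg/kg. The nearest was Thrsp at 6 mg/kg, with a response of −1.15 to DMPT and of 0.05 to p-toluidine. The difference of −1.20 had a 95% interval from −1.74 to −0.65, an unadjusted p of 4.77e-05 and an adjusted p of 0.247, and the other Thrsp probe sets had adjusted p of 0.424 and 0.417. Elovl6 differed by −1.18 at 6 mg/kg (95% interval −1.79 to −0.56, adjusted p = 0.424; −0.24 with the second probe set) and by −1.02 at 1 mg/kg (−1.64 to −0.41, adjusted p = 0.491). For Scd at 120 mg/kg the difference was −0.23 with an interval from −1.61 to 1.15. That interval gives the differences compatible with these arrays before adjustment, not the smallest difference that could be called. For Pklr at 120 mg/kg the difference was 0.00 with an interval from −0.35 to 0.35, and for Me1 −0.11 with an interval from −0.37 to 0.16.

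**Figure D4:**
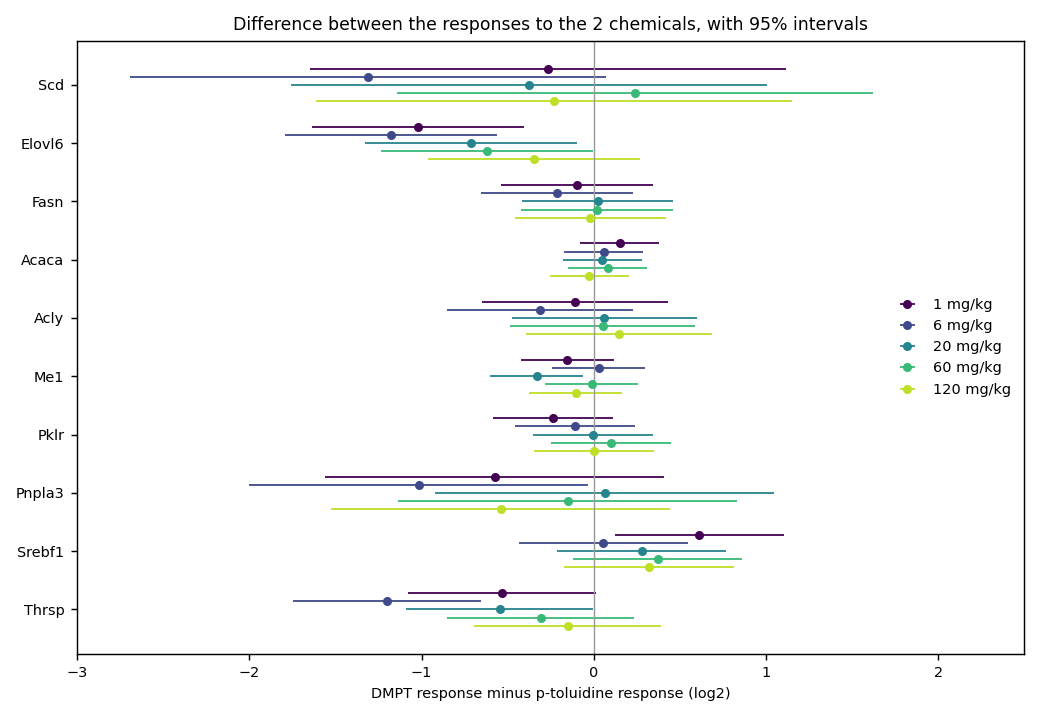
Response to DMPT minus response to p-toluidine at equal dose (horizontal axis, log2) for each of the 10 genes (vertical axis), with 95% intervals from a fit of all 60 arrays, coloured by dose. The intervals of Scd are the widest, those of Acaca and Pklr are narrow and include 0 at every dose, and those of Thrsp and Elovl6 at 6 mg/kg lie below 0 without passing the adjustment over all probe sets.

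Arrays of the same dose group also differed from each other in step for some of these genes. After each group mean was removed, Scd and Pklr varied together over the 30 DMPT arrays (Pearson r = 0.77, Spearman rho = 0.64, permutation p = 0.00023 and 0.00169, adjusted p over the 18 relations 0.00414 and 0.0304). Without the 2 arrays farthest from the median of Scd, vehicle replicate 2 and 1 mg/kg replicate 3, r was 0.66 (permutation p = 0.0049). Leaving out each array in turn gave 0 to 5 DMPT relations with an adjusted p of at most 0.05 for r. The adjusted p of this pair thus rose above 0.05 in at least 1 of those fits. Over the 30 p-toluidine arrays the same pair had r = 0.40 and rho = 0.38 (permutation p = 0.0164 and 0.0465, adjusted p = 0.0492 and 0.152), and r = 0.345 without the 2 farthest arrays (permutation p = 0.0852). In the p-toluidine set the correlation was thus of similar size without those arrays but its p was above 0.05, and the adjusted p of the full set rose above 0.05 in 20 of 30 fits that each left out 1 array.

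With Scd in the DMPT arrays, r was 0.65 for Acaca (adjusted permutation p = 0.0146), 0.65 for Srebf1 (0.0396), 0.56 for Thrsp (0.0396) and 0.52 for Acly (0.0396). Their rank correlations were 0.44, 0.48, 0.34 and 0.41, none with an adjusted p under 0.05. Without the 2 farthest arrays r was 0.45 for Acaca (permutation p = 0.0333), 0.36 for Srebf1 (0.186), 0.27 for Thrsp (0.194) and 0.27 for Acly (0.163), so the last 3 rest on those 2 arrays. In the p-toluidine arrays the same 4 genes had r between 0.08 and 0.40, with adjusted p from 0.121 to 0.791. Elovl6 ran the other way in the DMPT arrays (r = −0.33, rho = −0.40, adjusted p = 0.316 and 0.152).

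**Figure D5:**
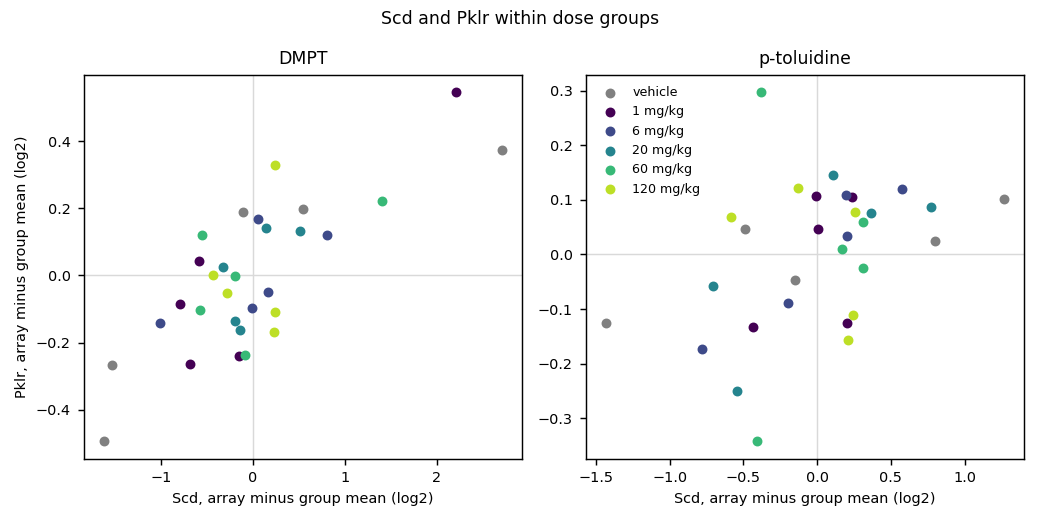
Deviation of Pklr (vertical axis) against that of Scd (horizontal axis) from the mean of their dose group, log2, 1 point per array, coloured by dose, for DMPT (left) and p-toluidine (right). In the DMPT set the points run along a rising diagonal that includes the vehicle arrays at both ends (r = 0.77). In the p-toluidine set both genes ranged less and the correlation was lower (r = 0.40).

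Fads1 and Fads2, the desaturases of polyunsaturated fatty acids, rose at 20 and 60 mg/kg of both chemicals: Fads2 by 0.66 ± 0.11 and 0.55 ± 0.11 for DMPT and by 0.72 ± 0.12 and 0.65 ± 0.12 for p-toluidine, and Fads1 by 0.49 ± 0.07 and 0.59 ± 0.07 for DMPT and by 0.45 ± 0.08 and 0.63 ± 0.08 for p-toluidine. At 120 mg/kg Fads1 was still called (0.35 for both), and Fads2 was not (0.23 and 0.12). Of 18 further genes of fatty acid synthesis, elongation and desaturation, 2 rose (Fads1, Elovl2) and 3 fell (Acsl5, Elovl1, Elovl5) at 120 mg/kg of DMPT, beside 12.7% of all genes called in either direction. At 120 mg/kg of p-toluidine 3 rose (Fads1, Elovl2, Acss2) and 4 fell (Acsl1, Acsl5, Elovl1, Elovl5), beside 14.8% of all genes. The medians of this list were 0.00 for DMPT and −0.01 for p-toluidine, with the median over all genes close to 0 for both. Acacb, the carboxylase at the mitochondrion, and the citrate carrier Slc25a1 were not called at any dose, with changes at 120 mg/kg of 0.20 and 0.01 for DMPT and of 0.25 and 0.15 for p-toluidine.

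Among 8 other genes of NADPH supply or the pentose phosphate pathway, not all of which make NADPH, 3 rose and 1 fell at 120 mg/kg of DMPT. At 120 mg/kg of p-toluidine 4 rose. The medians were 0.13 for DMPT and 0.29 for p-toluidine, beside 12.7% and 14.8% of all genes called in either direction. Pgd, of the pentose phosphate pathway, rose by 0.67 ± 0.12 for DMPT (adjusted p = 0.000242) and by 0.62 ± 0.10 for p-toluidine (adjusted p = 4.45e-05). Idh1 (0.27 and 0.34) and Taldo1 (0.26 and 0.36) rose under both, Tkt rose by 0.67 for p-toluidine, and H6pd fell by 0.47 for DMPT. Among 16 genes of hepatic sugar use beside Pklr, 3 rose (Eno1, Pdha1, Tpi1) and 2 fell (Gckr, Pdhb) at 120 mg/kg of DMPT (12.7% of all genes). At 120 mg/kg of p-toluidine 4 rose (Eno1, Gpi, Pfkl, Tpi1) and 3 fell (Gckr, Pdhb, Tkfc; 14.8% of all genes). Gckr, a regulator of hepatic sugar use, changed by −0.49 ± 0.09 for DMPT and by −1.05 ± 0.09 for p-toluidine. The medians of the sugar list were −0.06 and 0.06.

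Of 20 regulators of lipogenesis, 1 rose (Ppargc1b) and 3 fell (Akt2, Insig2, Mid1ip1) at 120 mg/kg of DMPT (12.7% of all genes), and 2 rose (Irs2, Scap) and 3 fell (Insig2, Mid1ip1, Mlxipl) at 120 mg/kg of p-toluidine (14.8%), with medians of −0.11 for DMPT and close to 0 for p-toluidine. Mid1ip1, a paralog of Thrsp that promotes the assembly of acetyl-CoA carboxylase into filaments, changed by −0.57 ± 0.19 for DMPT (adjusted p = 0.0452) and by −0.48 ± 0.15 for p-toluidine (adjusted p = 0.0339). Mlxipl fell by 0.44 ± 0.14 for p-toluidine (adjusted p = 0.0368), and its change for DMPT was −0.34 ± 0.13 (adjusted p = 0.0978). Insig2, which retains SREBP in the endoplasmic reticulum, changed by −0.44 ± 0.12 for DMPT and by −0.92 ± 0.15 for p-toluidine. Nr1h3, the liver X receptor that induces Srebf1, had changes of −0.05 and −0.09, and Insig1, itself a target of SREBP, had changes of 0.38 ± 0.29 and 0.39 ± 0.25, none of them called.

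Of 23 genes of triglyceride assembly and storage beside Pnpla3, 3 rose (Lpin2, Lpin3, Plin3) and 4 fell at 120 mg/kg of either chemical: Agpat2, Agpat3, Cideb and Plin2 for DMPT, and Agpat2, Cideb, Dgat2 and Plin2 for p-toluidine. The share of all genes called was 12.7% for DMPT and 14.8% for p-toluidine, and the medians of the list were −0.05 and −0.02. Plin2, which coats lipid droplets, changed by −0.29 ± 0.09 for DMPT (adjusted p = 0.0370) and by −0.56 ± 0.08 for p-toluidine (adjusted p = 9.33e-06). Gpam and Lpin1 were not called, with changes at 120 mg/kg of −0.32 and −0.02 for DMPT and of −0.25 and 0.04 for p-toluidine.

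Genes that fasting induces were examined because food restriction lowers Scd, Pklr and Thrsp together. Of 13, 1 rose at 120 mg/kg of DMPT (Pdk4, 0.76 ± 0.22, adjusted p = 0.0219), where 12.7% of all genes were called. At 120 mg/kg of p-toluidine 2 rose (Asns, Irs2) and 3 fell (Cyp4a1, Tat, Txnip), where 14.8% of all genes were called. At 6 mg/kg of DMPT, where Thrsp fell, none of the 13 was called, beside 0.211% of all genes, and Igfbp1 had a change of 0.47 and Pck1 one of −0.11. Cpt1a rose at 20 mg/kg of DMPT (0.34 ± 0.09, adjusted p = 0.0419) and at 60 mg/kg (0.38 ± 0.09, adjusted p = 0.0115). Food intake and body weight were not used here, and the part of feeding in the falls was not tested. Among 16 clock genes, Npas2 fell at 120 mg/kg, with changes of −1.55 ± 0.15 for DMPT and −2.67 ± 0.25 for p-toluidine. Bmal1 also fell under both, Hlf rose under DMPT, and Dbp, Nr1d2 and Tef rose under p-toluidine, beside 12.7% of all genes called for DMPT and 14.8% for p-toluidine. The part of sampling time was not tested.

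The livers read as liver: of 7 measured hepatocyte markers the dimmest (Tat) exceeded 91.9% of probe sets, and their summed level ranged from 15.386 to 15.450 at 120 mg/kg of DMPT and from 15.412 to 15.485 in its vehicle, and from 15.165 to 15.216 at 120 mg/kg of p-toluidine and from 15.202 to 15.291 in its vehicle. Summed levels are log2 of the summed linear values. Of these markers, Serpina1 fell at 120 mg/kg of DMPT (−0.23 ± 0.05, adjusted p = 0.00345) and Tat at 120 mg/kg of p-toluidine (−0.95 ± 0.23, adjusted p = 0.00491). The share of all genes called at 120 mg/kg, in either direction, was 12.7% for DMPT and 14.8% for p-toluidine. It stands beside every marker count given here. Because Scd, Fasn, Thrsp and Me1 are also strong in fat tissue, adipocyte markers are given beside them. Adiponectin (Adipoq), Plin1 and Lep lay between the 21.3 and 39.3 percentiles of all probe sets, and Fabp4 at 44.8 in the DMPT set and 35.9 in the p-toluidine set. The other 3 were brighter: Lipe at 81.7 and 84.5, Cfd at 77.4 and 79.0, and Cidea at 76.2 and 74.4, in the same order of sets. Of 7 measured adipocyte markers 1 was called, Cidea, which rose by 1.61 ± 0.20 for DMPT and by 1.63 ± 0.26 for p-toluidine at 120 mg/kg. Their summed level ranged from 7.64 to 7.98 at 120 mg/kg of DMPT and from 7.18 to 7.48 in its vehicle, and from 7.05 to 7.30 at 120 mg/kg of p-toluidine and from 6.78 to 6.86 in its vehicle. Among 3 erythroid markers, of interest because red cell precursors express Pklr, Ahsp rose by 0.64 ± 0.13 for DMPT and 0.57 ± 0.13 for p-toluidine. Ahsp lay at the 55.9 percentile of all probe sets in the DMPT set and at 56.5 in the p-toluidine set. The summed erythroid level ranged from 11.449 to 12.018 at 120 mg/kg of DMPT and from 11.070 to 11.748 in its vehicle, and from 10.974 to 11.628 at 120 mg/kg of p-toluidine and from 10.958 to 11.302 in its vehicle. The part of these cells in the results was not tested. Of the other marker lists at 120 mg/kg, 1 of 3 cholangiocyte markers rose (Epcam) and 1 of 4 pancreatic acinar markers fell (Cela1) under both chemicals. None of 4 macrophage, 4 stellate cell or 2 neutrophil markers was called.

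Genes whose values lay nearest to Scd over all 60 arrays, after each gene was centred on its own vehicle group, were Slc6a6, Stac3, Oat, Apoa4 and Cyp3a9. Their root mean square differences from Scd ran from 1.30 to 1.38 log2 units, where Scd itself had a root mean square of 2.19, so none tracked it closely. Slc6a6 (the taurine transporter) and Oat (ornithine aminotransferase) had changes of −0.22 and −0.01 at 1 mg/kg of DMPT, against −1.62 for Scd, and of −1.83 and −2.11 at 120 mg/kg, against −2.68 for Scd. Nearest to Thrsp were Tnfrsf9, Fkbp4, Acp3, Aspg and Ddx39b, with differences from 0.367 to 0.389 where Thrsp itself had 0.583. At 6 mg/kg of DMPT their changes lay between −0.35 and −0.78, against −1.15 for Thrsp.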

How the data were processed

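Liver RNA was measured on 60 one-colour Affymetrix arrays. The submitters' processing notes name RMA, without a version, and the values the authors deposited are treated as log2. This scale is inferred from RMA and from the range (0.05 to 13.88), and every fold depends on it. Control probe sets (57) were left out, and no filter on brightness was used. Names came from the platform annotation, updated to RefSeq symbols (GRCr8).

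Each chemical's 30 arrays were fitted with 6 group means in limma 3.58.1 (R 4.3.3), with eBayes and Benjamini-Hochberg adjustment over 31042 probe sets. Responses to the chemicals were compared in a fit of all 60 arrays. Relations within groups were tested by 100000 permutations within dose groups (scipy 1.17.1, numpy 2.4.6). Scripts were tested on simulated data. The series' ORIOGEN comparison was not rerun, and an order-restricted test with 100 permutations was an alternative.

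The members and gene lists were chosen with earlier results of these data known. All members were named with values, and so were listed pathway genes fixed by symbol; others were given by counts and named where a count was 5 or fewer. The 5 genes nearest to Scd and to Thrsp were named by root mean square difference. Some list genes were not analysed here. Replicate numbers did not pair arrays: same-numbered arrays correlated at −0.001 and −0.004 on average.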

Additional observations from a re-analysis of the deposited data

Results flagged for a closer look

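In groups of 5 arrays, 6 of 120 combinations of member and group held an array whose distance from its nearest neighbour took up an unusual share of the range (Dixon's test); chance gives about 1 in 20, here 6. Scd read 8.51 in replicate 3 at 1 mg/kg of DMPT (the others 5.51 to 6.15) and 7.04 in replicate 5 at 60 mg/kg of DMPT (the others 5.07 to 5.55). Fasn read 6.99 in replicate 5 at 20 mg/kg of p-toluidine (the others 7.59 to 7.78). Pnpla3 read 2.19 in replicate 1 at 6 mg/kg of p-toluidine (the others 2.98 to 3.28) and 4.77 in replicate 2 at 60 mg/kg (the others 3.29 to 3.70). Thrsp read 7.96 in replicate 4 at 60 mg/kg of p-toluidine (the others 8.51 to 8.69).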

How the results depend on the processing

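No result changed its sign while called under any alternative run. The count of members called at 6 mg/kg of DMPT was 2 (1 as reported) when probe sets below the median brightness were left out, with Scd added. At 60 mg/kg of DMPT it was 0 (3 as reported) without the 6 arrays that stood apart, which leaves 2 arrays at that dose. For the step between 60 and 20 mg/kg of DMPT it was 1 (0 as reported; Me1) with quantile normalization over 30 or over 60 arrays and with an intensity trend and robust moderation. Relations with Scd in the p-toluidine arrays numbered 0 (1 as reported) after quantile normalization. Leaving out each array in turn gave, for DMPT, 0 members at 1, 1 to 2 at 6, 1 to 3 at 20, 2 to 3 at 60 and 3 to 4 at 120 mg/kg, 4 to 5 for the trend, 0 to 1 for the step between 60 and 20 mg/kg and 0 for the other steps. For p-toluidine it gave 0 to 1 at 1, 0 at 6, 1 to 2 at 20, 2 to 4 at 60 and 4 to 5 at 120 mg/kg, 4 to 6 for the trend and 0 for the steps. It gave 0 for every difference between the chemicals, and 0 to 5 relations with Scd for DMPT and 0 to 1 for p-toluidine. The replicate numbers share only a name; with the replicate block the Me1 call at 60 mg/kg and the Thrsp call at 120 mg/kg of DMPT were lost (adjusted p = 0.0554 and 0.0678) and Me1 was called at 60 mg/kg of p-toluidine (0.0418). The order-restricted test added Acly and Thrsp under DMPT (adjusted p = 0.0251 and 0.00897). Causes were not tested.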
